A study of Mus musculus with 4 samples.

Results

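The genes described here are 10 components of the Hedgehog pathway, namely *Ptch1*, *Smo*, *Gli1*, *Gli2*, *Gli3*, *Hhip*, *Boc*, *Cdon*, *Gas1* and *Sufu*, chosen by gene symbol from the 24391 symbols of an RNA-seq count table. All 10 symbols were present in the table. RNA-seq had been performed in primary mouse embryonic fibroblasts (MEFs) from E13.5 embryos, with 2 WT and 2 *Phf2* KO libraries, to ask which transcripts change when the H3K4me3 reader Phf2 is lost. The cells of both groups carried the genotype Phf2 flox/flox, ERCre/+, in which a tamoxifen-inducible Cre recombinase (CreERT2) is expressed from the Rosa26 locus. The WT libraries were labelled as untreated with tamoxifen, and the *Phf2* KO libraries as treated, for which the protocol gives 0.5 µM 4-hydroxytamoxifen for 7 days in arrested cells. What the WT cells received in its place is not given in the sources used here. Loss of *Phf2*, Cre activity and the drug therefore came together in the same libraries and cannot be told apart.

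Hedgehog ligands (Shh, Ihh and Dhh) are secreted proteins that pattern the embryo. In their absence the receptor Patched 1 (Ptch1) keeps the membrane protein Smoothened (Smo) inactive, and the transcription factors Gli2 and Gli3 are held back by Sufu and processed into repressors at the primary cilium. Binding of a ligand to Ptch1 together with the co-receptors Boc, Cdon or Gas1 releases Smo, and activated Gli proteins then induce *Gli1*, *Ptch1* and *Hhip*, which are widely used readouts of pathway activity. Embryonic fibroblasts, which are ciliated when quiescent, are a standard cell type in which this response is studied.

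The 4 libraries held between 21094743 and 26094268 counted reads, and 13668 genes had enough counts to be tested. *Phf2*, the targeted gene, had 3244 and 3680 reads (WT) against 1454 and 2158 reads (*Phf2* KO) over its whole length. The log2 difference was -0.79 ± 0.14 (SE), with an unadjusted p of 0.00332 and an adjusted p of 0.999 in the quasi-likelihood test of edgeR. With the replicate number in the fit, *Phf2* was called lower (log2 -0.80, adjusted p = 7.67e-19 from edgeR), by -0.94 between the libraries numbered 1 and -0.66 between those numbered 2. The libraries numbered 1 were female and those numbered 2 male in both groups (*Xist*, counted 8336 and 10042 times in replicates 1, was counted 3 and 12 times in replicates 2), so that the spread within a group includes a difference in sex and embryo. All 12 fibroblast markers listed were tested and together took between 69640 and 82161 CPM (counts scaled to library size). The 8 endothelial markers summed to between 9.53 and 22.1 CPM, with *Tie1* and *Cldn5* at 0 reads and *Kdr* at 135 to 441 reads.

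Receptors, transducers and transcription factors of the pathway were transcribed in both groups, while the members that the pathway induces (*Ptch1*, *Hhip* and *Gli1*) were low or close to undetected. Levels were compared between genes as normalized CPM per kilobase of exon (RPKM), with exon lengths from the GENCODE annotation of mm9. *Gas1*, which encodes a GPI-anchored co-receptor in a single exon (chromosome 13, 60275766 to 60278726, reverse strand), had the highest level, with 132.2 and 173.9 RPKM in WT against 159.0 and 176.9 in the *Phf2* KO libraries. This level was above that of 98.2% of the 12486 tested genes with a known exon length. The co-receptor genes *Boc* (between 48.1 and 62.1 RPKM over the 4 libraries) and *Cdon* (between 48.4 and 49.7) followed, and their ranges overlapped. *Smo*, the signal transducer, lay just below both, between 37.8 and 46.3 RPKM.

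Among the transcription factors, *Gli2*, the main activator of the response, was at 13.6 and 17.5 RPKM in WT against 13.9 and 16.9 in the *Phf2* KO libraries. *Gli3*, the main source of the repressor form, lay between 4.64 and 5.55 RPKM, below *Gli2* in all 4 libraries. *Sufu*, the cytoplasmic inhibitor of Gli proteins, lay between 5.73 and 6.23 RPKM, just above *Gli3*. This was close to the median of 5.79 RPKM over the 12486 tested genes with a known exon length. *Ptch1* was counted far less, between 1.20 and 1.37 RPKM, a level above that of 22.2% of these genes. *Hhip*, which encodes a decoy receptor that binds the ligands, and *Gli1* were at most at 0.0595 and 0.0509 RPKM, and their ranges overlapped.

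**Figure D1:**
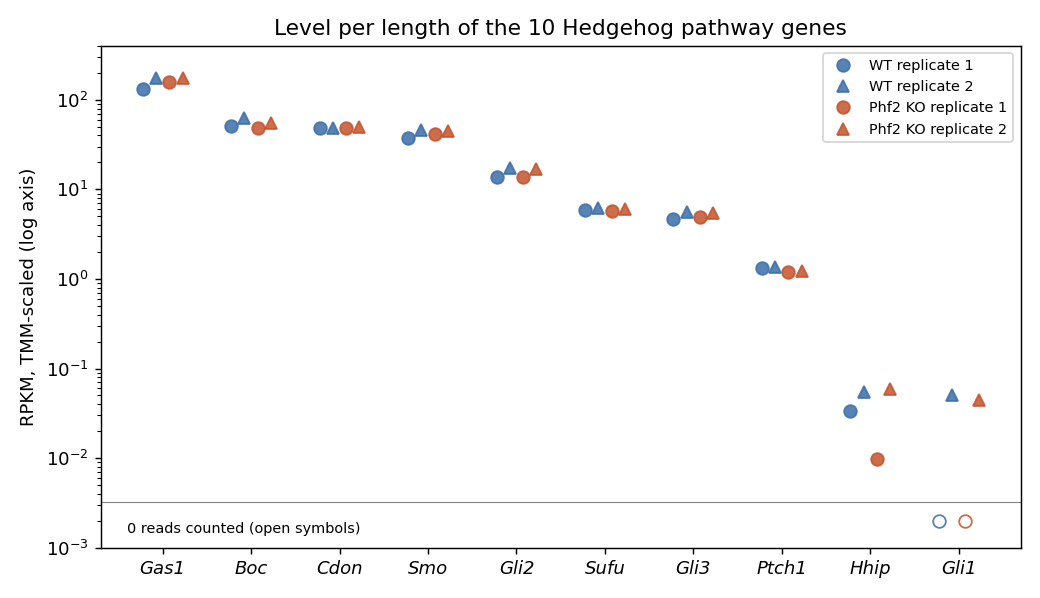
RPKM (log axis) of the 10 Hedgehog pathway genes in each library, ordered by their mean over the 4 libraries, with WT in blue, Phf2 KO in orange, replicates 1 as circles and replicates 2 as triangles. Receptor and transducer genes lie between 1.20 (Ptch1) and 176.9 RPKM (Gas1), whereas Hhip and Gli1 lie below 0.06, and open symbols mark the 0 reads of Gli1 in both replicates 1.

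For *Gli1* (chromosome 10, 126766945 to 126778645, reverse strand) 0 and 5 reads (WT) against 0 and 4 reads (*Phf2* KO) were counted. Summed over the 2 libraries of a group, this is 0.100 CPM in WT (exact Poisson 95% interval 0.0325 to 0.234, for counting error only) and 0.0891 CPM in *Phf2* KO MEFs (0.0243 to 0.228). The detection limit was set at 3 reads in a library, which is between 0.115 and 0.142 CPM, and *Gli1* exceeded it only in the libraries numbered 2, with 0 reads in those numbered 1. A difference between the genotypes was not detectable at this depth. *Gli1* overlaps *Arhgap9* on the opposite strand, and the alignment is stated to be reverse stranded. *Hhip* (chromosome 8, 82490014 to 82581905, reverse strand) was counted 4 and 7 times in WT against 1 and 7 in the *Phf2* KO libraries, or 0.220 CPM (0.110 to 0.394) and 0.178 CPM (0.0769 to 0.351) over the libraries of each group. The intervals of WT and *Phf2* KO overlapped for both genes. Both were removed by the filter on low counts, so 8 of the 10 members were tested.

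*Ptch1* (chromosome 13, 63610261 to 63674474, reverse strand) is the pathway's receptor and also its target gene, and was the only induced gene among the members with enough reads for a test. The sequence that Gli proteins are known to prefer, GACCACCCA, was searched on both strands within 5000 bases either side of the gene start of each member in mm9. It was found for 2 of the 10 members, *Ptch1* and *Sufu*, against 7.93% of 22374 protein-coding genes. The matches are shown in the orientation of the motif, with the motif in capitals and 15 bases either side. The upper *Ptch1* match lies 303 bases upstream of the annotated start (chr13:63674758-63674796), the lower 3877 bases downstream of it in an intron (chr13:63670578-63670616), and the *Sufu* match 4234 bases downstream in a coding exon (chr19:46475601-46475639). All 3 matches lie on the reverse strand.
Ptch1 upstream: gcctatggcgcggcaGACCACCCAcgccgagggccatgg
Ptch1 intron: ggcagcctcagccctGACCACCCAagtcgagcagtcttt
Sufu exon: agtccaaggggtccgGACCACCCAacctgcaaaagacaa
The 3 sites share the 9 bases of the motif and differ around it. No match was found in the RefSeq promoters (GRCm38.p6, from 250 bases before to 50 after the start) of the 8 members listed there, against 0.253% of 32851 promoters. At that share a match among 8 promoters was unlikely in any case, so its absence is no result about the members. *Gli1* and *Boc* were not listed. A match is a description of the sequence and not a measured binding site.

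Between *Phf2* KO and WT MEFs, none of the 8 tested members was called at an adjusted p-value under 0.1 by the quasi-likelihood test of edgeR (unadjusted p under 0.05 for 0 of 8, and likewise 0 of 8 by DESeq2, limma-voom and edgeR's likelihood ratio test), where 0.00732% of all tested genes were called. The fitted changes were 4 up and 4 down, between -0.15 and 0.13 on the log2 scale, with a median of 0.0048, beside 0.0054 over all tested genes, which the normalization sets near 0. The 95% intervals of the 8 fold changes together ran from 0.692 to 1.48, the lower limit being that of *Ptch1* and the upper that of *Gas1*. The narrowest was that of *Cdon*, from 0.870 to 1.18.

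*Ptch1* had the lowest fitted change. Its level was 8.67 and 8.98 normalized CPM in WT against 7.92 and 7.99 in the *Phf2* KO libraries, from counts of 209, 233, 164 and 192. Both *Phf2* KO libraries were below both WT libraries, which was also the case for 18% of all tested genes, and among the members for *Ptch1* alone. The fold change was 0.901 (95% interval 0.692 to 1.17, log2 -0.15 ± 0.14 standard error, adjusted p = 0.999 from edgeR), and the log2 difference was -0.13 between the libraries numbered 1 and -0.17 between those numbered 2.

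Among the co-receptors, *Boc* (chromosome 16, 44485158 to 44559010, reverse strand) was at 227.8 and 276.7 normalized CPM in WT against 214.5 and 244.6 in the *Phf2* KO libraries. The groups overlapped, and the log2 fold change was -0.14 ± 0.14 (SE). *Gas1* was at 391.4 and 514.9 CPM in WT against 470.7 and 523.9 in the *Phf2* KO libraries, with overlapping groups and a log2 fold change of 0.13 ± 0.16 that had the widest upper limit of the members (1.48-fold). *Cdon* (chromosome 9, 35228713 to 35315236, forward strand) was the steadiest member, at 375.6 and 373.3 CPM in WT against 376.2 and 383.5 in the *Phf2* KO libraries. Both of its *Phf2* KO libraries were above both WT libraries, as for 15.5% of all tested genes, but the log2 fold change was 0.02 ± 0.08.

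*Smo* (chromosome 6, 29685694 to 29711365, forward strand) was at 142.9 and 175.0 CPM in WT against 158.2 and 167.8 in the *Phf2* KO libraries, so that both *Phf2* KO libraries lay between the WT libraries. *Gli2* (chromosome 1, 120730709 to 120950196, reverse strand) was at 93.4 and 119.9 CPM in WT against 95.7 and 116.0 in the *Phf2* KO libraries. *Gli3* (chromosome 13, 15555068 to 15821859, forward strand) was at 44.5 and 53.2 CPM in WT against 47.5 and 51.8 in the *Phf2* KO libraries. For *Gli2* and *Gli3*, as for *Smo*, the *Phf2* KO libraries fell inside the WT range. *Sufu* (chromosome 19, 46471386 to 46563294, forward strand) was at 41.3 and 43.3 CPM in WT against 39.8 and 42.3 in the *Phf2* KO libraries. The log2 fold changes were 0.04 for *Smo*, -0.01 for *Gli2*, 0.02 for *Gli3* and -0.04 for *Sufu*.

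The signs of 4 of the 8 changes reversed when a single library was left out. Such a fit leaves 1 group with a single library of 1 sex and has no term for the replicate number. A difference between the replicate numbers therefore enters its genotype change. With all 4 libraries and the replicate number in the fit, the 4 kept their sign (*Gli2* -0.007, *Smo* 0.04, *Gli3* 0.03 and *Gas1* 0.15). *Gli2* went to 0.16 without WT replicate 2 and 0.12 without *Phf2* KO replicate 1. *Smo* went to -0.09 and *Gli3* to -0.09 without WT replicate 1, and to -0.01 and -0.04 without *Phf2* KO replicate 2. *Gas1* went to -0.04 without WT replicate 1. The changes of *Ptch1*, *Boc*, *Cdon* and *Sufu* kept their sign with each library left out, and *Ptch1* stayed between -0.16 and -0.14.

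When the replicate number, which separates the sexes, was a term in the fit, the members' intervals narrowed and again none of the 8 was called, against 11% of all tested genes. The intervals of the fold changes then ran from 0.732 to 1.25 over the 8 members. The smallest unadjusted p-value was that of *Gas1* (0.110, adjusted p = 0.398 from edgeR). This fit has 1 residual degree of freedom among the libraries, and its variance is estimated almost wholly across genes. The standard errors of *Ptch1* (0.152 against 0.144) and *Cdon* (0.0887 against 0.0837) were larger in it than on genotype alone. Those of the other tested members were smaller.

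**Figure D2:**
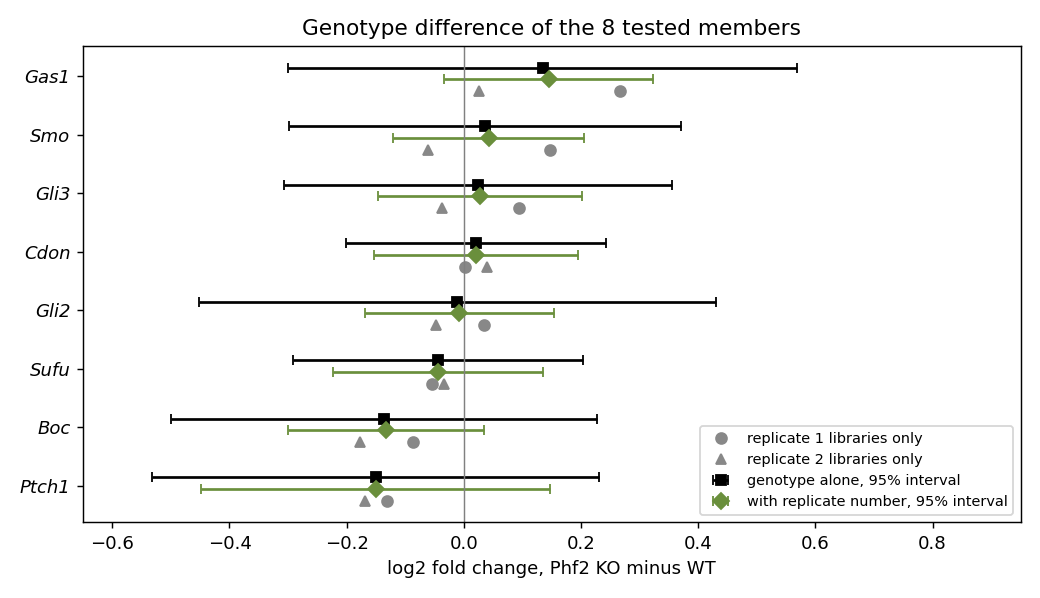
Log2 fold change of Phf2 KO against WT for the 8 tested members, with the fit on genotype alone (black squares), the fit with the replicate number (green diamonds), their 95% intervals, and the differences within replicates 1 (grey circles) and 2 (grey triangles). All 16 intervals include 0, and the fitted values lie between -0.15 (Ptch1) and 0.15 (Gas1).

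Several members differed between the replicate numbers. In the fit with both terms, *Gli2*, *Gas1*, *Boc* and *Smo* were higher in replicates 2 than in replicates 1 and no member was higher in replicates 1. These are 4 of 8 members, against 26.2% of all tested genes called in either direction and 12.6% called higher in replicates 2. The labels do not say whether same-numbered libraries share an embryo. If they do, the p-values between replicate numbers include no spread between embryos. *Gli2* was 1.25-fold higher (log2 0.32, adjusted p = 0.00102 from edgeR), by 0.36 within WT and 0.28 within *Phf2* KO. *Gas1* was 1.21-fold higher (adjusted p = 0.0149 from edgeR) and *Boc* 1.18-fold higher (adjusted p = 0.0306 from edgeR), each in both groups. *Smo* was 1.14-fold higher (adjusted p = 0.0922 from edgeR), by 0.29 within WT and 0.08 within *Phf2* KO, and *Gli3* had the same fold of 1.14 but was not called (adjusted p = 0.114 from edgeR). *Ptch1*, *Cdon* and *Sufu* differed by at most 0.08 log2 units in this fit. All 9 reads of *Gli1* came from the replicates 2, or 0.180 CPM (exact Poisson 95% interval 0.0824 to 0.342) against 0 (up to 0.0822) in replicates 1.

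Markers of other cell types moved with the replicate number, and some also with the genotype. All 15 macrophage markers listed were higher in replicates 1 in both groups and together took 3662 and 4165 CPM in replicates 1 and 796 and 1256 in replicates 2. The 7 chondrocyte markers took 21.4 and 39.7 CPM in replicates 1 and 146.4 and 125.9 in replicates 2, mostly *Col10a1* and *Col2a1*, and 3 of the 4 tested were higher in replicates 2 in both groups. The fibroblast markers went both ways, with 4 of 12 higher in replicates 1 and 3 higher in replicates 2 in both groups. With the replicate number in the fit, 7 of the 15 macrophage markers were called higher in *Phf2* KO, among them *Lyz2* (log2 0.62, adjusted p = 7.89e-08 from edgeR), and none lower. The muscle marker *Des* (-0.73, adjusted p = 5.51e-11 from edgeR) and the endothelial marker *Kdr* (-0.60, adjusted p = 0.000623 from edgeR) were called lower. *Des* was the only 1 of the 7 muscle markers tested. *Tek*, the other of the 2 endothelial markers tested, was not called (0.09, adjusted p = 0.875 from edgeR). The part of these markers in the differences of the pathway genes was not tested. In bulk libraries fewer cells of a type and less RNA per cell cannot be told apart.

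**Figure D3:**
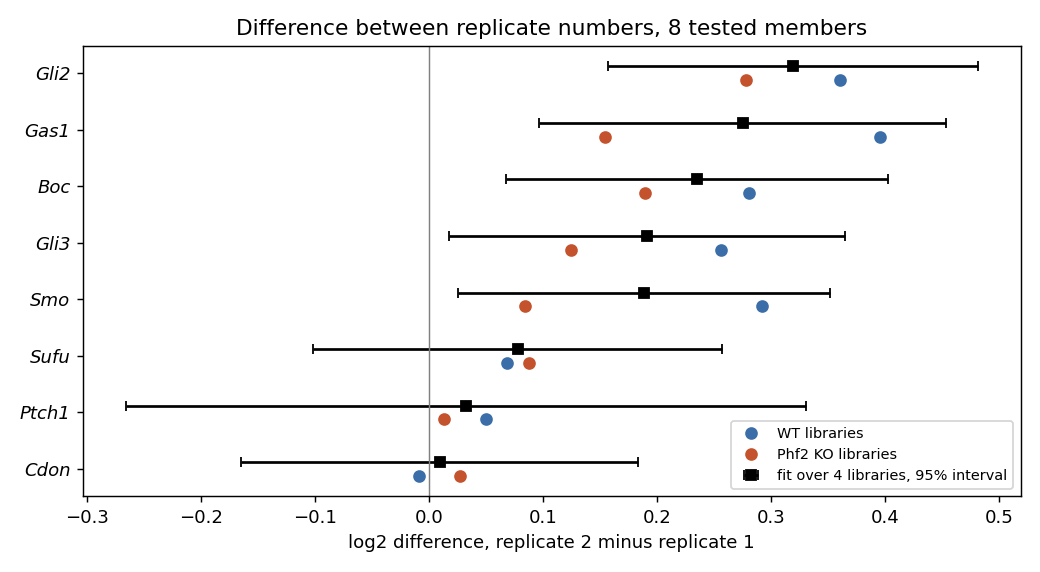
Log2 difference of replicate 2 minus replicate 1 for the 8 tested members, as fitted over the 4 libraries with genotype in the model (black squares, 95% interval) and within WT (blue) and Phf2 KO libraries (orange). The intervals of Gli2, Gas1, Boc, Gli3 and Smo lie above 0, and those of Sufu, Ptch1 and Cdon include it.

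The other genes of the pathway were taken from a list of 113 genes by role, of which 102 were tested. None was called between *Phf2* KO and WT MEFs by the quasi-likelihood test of edgeR (unadjusted p under 0.05 for 1), nor by DESeq2, limma-voom or the likelihood ratio test, and 55 were lower and 47 higher. The ligand *Shh* was counted 0 times in all 4 libraries, which allows up to 0.142 CPM in the shallowest. *Ihh* was counted between 4 and 6 times and *Dhh* between 5 and 8 times in each library, near the limit of detection in both groups. *Disp1*, which encodes the transporter that releases the ligands, was also counted 0 times in all libraries, as were 5467 of the 24391 symbols in total. Because the gene annotation behind the counts is not given, a count of 0 need not mean that a gene was silent.

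With the replicate number in the fit, 3 of the 102 genes were higher in *Phf2* KO MEFs and 3 lower, against 5.77% and 5.2% of all tested genes. The higher genes were *Adam17*, a sheddase (log2 0.23, adjusted p = 0.0749 from edgeR), *Arrb2*, a beta-arrestin that takes part in Smo trafficking (0.29, adjusted p = 0.0284 from edgeR), and *Csnk1e*, a casein kinase 1 (0.29, adjusted p = 0.00875 from edgeR). *Arrb2* was counted 1562 and 508 times in WT against 1509 and 638 in the *Phf2* KO libraries. It was higher in both libraries numbered 1 than in both numbered 2, as were the macrophage markers, of which *Csf1r* (0.28, adjusted p = 0.0189 from edgeR) and 6 others were also called higher in *Phf2* KO in this fit. Their part in the value of *Arrb2* was not tested. The lower genes were *Csnk1a1*, another casein kinase 1 that phosphorylates Gli proteins (-0.25, adjusted p = 0.0369 from edgeR), and 2 genes of retrograde transport in the cilium. These were *Ttc21b*, a subunit of the intraflagellar transport complex A (-0.34, adjusted p = 0.0748 from edgeR), and *Dync2li1*, the light intermediate chain of cytoplasmic dynein 2 (-0.39, adjusted p = 0.0462 from edgeR). *Ttc21b* was counted 395 and 400 times in WT against 266 and 297 in the *Phf2* KO libraries, and *Dync2li1* 346 and 336 against 195 and 274 times. Both were lower in both *Phf2* KO libraries than in both WT libraries, as were 18% of all tested genes. Among the 32 tested genes of ciliary transport this held for 8. Another 5 of the 32 were higher in both *Phf2* KO libraries than in both WT libraries, against 15.5% of all tested genes. Other listed genes of retrograde transport, *Ift122*, *Ift140*, *Wdr19*, *Wdr35* and *Dync2h1*, were not called in this fit (log2 between -0.27 and -0.01).

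By role, the median log2 fold change on genotype alone was -0.26 over 7 tested genes of the ligands and their release, 0.05 over 6 other receptors and co-receptors, 0.00 over 17 regulators of Smo, 0.00 over 20 genes of Gli processing, -0.08 over 32 genes of ciliary transport and 0.07 over 21 target genes. The value for ligands and their release is that of *Disp2*, for which only 9 and 17 reads (WT) and 12 and 7 reads (*Phf2* KO) were counted. In the ciliary transport list, 13 genes were lower and 7 higher in *Phf2* KO within both replicate numbers, whereas over all tested genes 4120 were lower and 4449 higher. None of the 21 tested target genes was called in either fit.

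**Figure D4:**
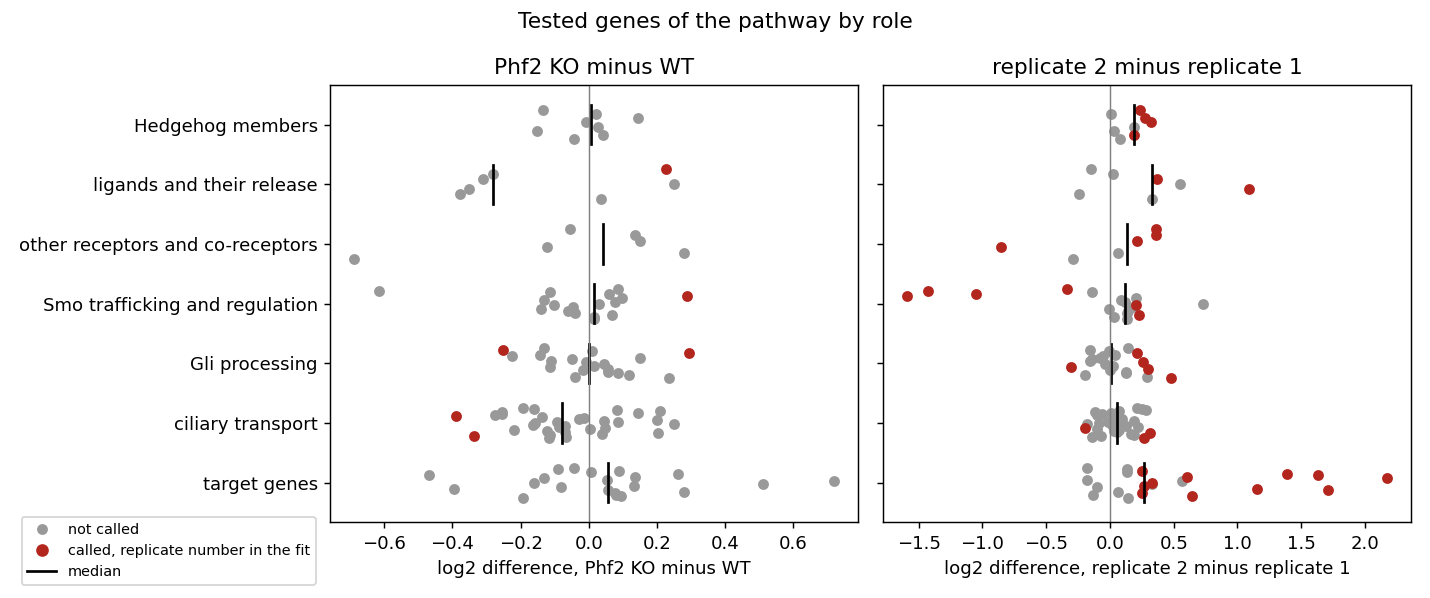
Log2 differences of the tested genes by role, for Phf2 KO minus WT (left) and replicate 2 minus replicate 1 (right), both from the fit with genotype and replicate number. Red points passed the adjusted p threshold of 0.1, grey points did not, and black lines are medians. On the left 6 genes are called, none of them a member or a target gene, and on the right 11 target genes are called, all with positive values.

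The genes whose levels over the 4 libraries were most like those of *Ptch1* were *Zdhhc4*, *Pagr1a*, *Vill*, *Mettl3* and *Pxdn*, with root mean square differences from 0.00618 to 0.0119 log2 units after centring each gene. *Ptch1* was used here because *Gli1* was not tested. With 4 libraries such likeness is common, and 3170 tested genes lay within 0.1 log2 units of *Ptch1*.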

How the data were processed

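The members were taken by gene symbol, and the members and lists were chosen with earlier results of these data known. The authors trimmed single 50-nt reads with Trim Galore, removed rRNA reads with bowtie2, aligned to mm9 with STAR (reverse stranded) and ran featureCounts to obtain a count per gene. Their versions and gene annotation are not given in the sources used here. The deposited values are raw counts in whole numbers. A deposited table of the authors' own DESeq2 comparison (fold changes and p-values) was not used.

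The tests were run with edgeR 4.0.16 under R 4.3.3 (filterByExpr, TMM, glmQLFit, glmQLFTest) over all 13668 genes kept, with Benjamini-Hochberg adjustment and a threshold of 0.1. Genotype was the only term. Standard errors are the absolute log2 fold change over the square root of F. DESeq2 1.42.0 and limma 3.58.1 (voom), other normalizations, filters and thresholds, the replicate number as a block, and leaving out single libraries were alternatives. Positions, exon lengths and motif windows came from GENCODE vM1 on NCBIM37 (mm9). Scripts were tested on simulated data. Figures used Python 3.11.15 and Matplotlib 3.10.9.

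Named were all members, the ligands, genes of the wider list called with or without the block, *Phf2*, and the 5 genes nearest to *Ptch1*. Other genes were named after their values were seen, and a further gene of the rule is not reported here. No 2 libraries were alike within counting error (chi-square per degree of freedom between 14.6 and 55.1). The p-values on genotype alone measure the spread between 2 libraries a group, which the study calls biological replicates, moderated across genes. The fit with the replicate number has 1 residual degree of freedom, and its variance is estimated almost wholly across genes. Its p-values therefore do not measure the spread of a gene between the libraries of a group.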

Additional observations from a re-analysis of the deposited data

Results flagged for a closer look

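For 4 members the difference between *Phf2* KO and WT had opposite signs in the libraries numbered 1 (female) and 2 (male), with 1 library of each kind, so the difference between the sexes was not tested. *Smo* was higher by 0.15 log2 units in *Phf2* KO replicate 1 and changed by -0.06 in replicate 2, a gap of 0.21. *Gli3* changed by 0.09 and -0.04 (gap 0.13) and *Gli2* by 0.03 and -0.05 (gap 0.082). *Hhip* changed by -1.78 and 0.11 (gap -1.89), on counts of 4 and 1 in replicates 1 and 7 and 7 in replicates 2. *Cdon* differed between replicate 2 and replicate 1 by -0.009 in WT and 0.03 in *Phf2* KO MEFs (gap -0.036), which was not tested either.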

How the results depend on the processing

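None of the 8 tested members was called between *Phf2* KO and WT under any alternative, and their log2 fold changes kept their sign under every tool, normalization, filter and block. Leaving out a library leaves 1 group with a single sex. With each left out in turn, *Smo* ran from -0.090 to 0.17, *Gli2* from -0.17 to 0.16, *Gli3* from -0.086 to 0.14 and *Gas1* from -0.038 to 0.33. Over all genes, 1 was called on genotype alone, 64 by DESeq2 (of 15991 tested), 0 by limma-voom (575 at an unadjusted p under 0.05), 41 by the likelihood ratio test, 0 at thresholds of 0.05 and 0.01 (576 unadjusted), and 0 with any library left out (237 to 755 unadjusted), which leaves fewer samples. The cause of the spread among tools was not tested. When the replicate number entered as a block, 1500 genes were called by edgeR and 1371 by limma-voom, and 6 of the wider list by each. The labels do not state that equal numbers are a pair. Same-numbered libraries deviated together (Pearson's r = 0.759 across 13668 genes, which are not independent), and both pairs matched in sex. Between the replicate numbers, 4 members were called, 1 at a threshold of 0.01, and 1 without genotype in the fit, an alternative chosen after seeing the data. *Gli1* and *Hhip* could not be tested at this depth.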

Other observations

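Some target genes of the pathway differed between the replicate numbers. *Ptch1*, the only tested target among the members, was not called (log2 0.03, adjusted p = 0.922 from edgeR), nor were the listed targets *Ccnd1*, *Ccne1* and *Foxm1*. In the fit with genotype and replicate number, 11 of the 21 tested target genes that are not members were higher in replicates 2 and 0 higher in replicates 1, while 12.6% of all tested genes were called higher in replicates 2. The genes were singled out after their values were seen. If same-numbered libraries share an embryo, which the labels do not state, these p-values include no spread between embryos. They included *Pax1* (log2 1.15, adjusted p = 1.04e-07 from edgeR) and *Pax9* (1.71, adjusted p = 0.00558 from edgeR), which mark the sclerotome, the embryonic source of the axial skeleton. The forkhead genes *Foxd1* (1.39), *Foxd2* (1.63), *Foxf1* (0.60) and *Foxf2* (2.17) were also called. *Foxf2* had only 2 and 3 counts in replicates 1 and 15 and 11 in replicates 2. Counts were also low for *Foxd2*, at 14 and 8 in replicates 1 and 45 and 31 in replicates 2. *Foxd1* was counted 23 and 41 times in replicates 1 and 101 and 86 times in replicates 2, and *Pax1* 68 and 57 against 195 and 118 times. The others were *Tbx2*, *Igfbp6*, *Osr1*, *Ccnd2* and *Sfrp1*, by between 0.25 and 0.65 log2 units. All 11 were higher in replicates 2 within each genotype. The chondrocyte markers *Col2a1* (28 and 75 counts in replicates 1, 542 and 645 in replicates 2) and *Col10a1* (212 and 562 against 2779 and 2038) moved in the same direction, whereas *Sox9* did not differ in one direction in both groups (185 and 226 counts in WT, 125 and 144 in *Phf2* KO, or 6.03 and 5.99 CPM in the latter). Their part in the differences of the target genes was not tested.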
